A study of Mus musculus with 6 samples.

Results

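The heavy chain variable genes (Ighv) were examined in bulk RNA libraries of mouse bone marrow cells that the labels call hematopoietic stem cells. They were chosen by symbol, as every row whose symbol starts with Ighv and a digit, whatever its value. This gave 185 of the 52550 genes in the files, with 183 different symbols, since Ighv1-13 and Ighv5-8 are each listed under a pair of identifiers. The study compared 3 wild-type (WT) libraries, with the genotype Ppp2caf/f, and 3 knockout (KO) libraries, with the genotype VAV1crePpp2caf/f. All 6 libraries thus come from mice in which Ppp2ca, encoding a catalytic subunit of the PP2A phosphatase, is floxed, and the KO mice also carry Vav1-Cre, a recombinase driver active across blood cells. Age, sex, the markers used for isolation and the number of mice per library are not stated in the labels. The p-values therefore reflect how much these 6 samples vary, and that variation may be technical.

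An antibody heavy chain gene is put together in developing B cells by joining a variable, a diversity and a joining segment next to the constant genes. Each B cell clone carries its own joined gene, while different clones can use the same variable segment, and plasma cells transcribe the joined gene at very high levels. Sequence similarity sorts the mouse variable segments into families, of which Ighv1 is the largest and lies mostly in the part of the locus far from the joining segments. Hematopoietic stem cells have not joined these segments, so the genes are known for B lineage cells and not for stem cells.

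All 185 rows lie on chromosome 12 of GRCm38 (mm10), between 113572927 and 116010093, and all 185 had the same start and end in GENCODE M21. That annotation lists 113 of them as variable genes, 70 as variable pseudogenes and 2 as IG_LV genes on the opposite strand to the rest. The libraries held 37951985 to 58692037 reads over genes. A normalised read count here is a deposited value, which equals the reads of a gene divided by a size factor of its library. Ppp2ca itself had 32909 to 33451 normalised reads in WT and 22419 to 24046 in KO, where it fell to 70.5% of the WT level (limma, adjusted p = 0.00268). All 7 stem cell markers looked up (Hlf, Mecom, Procr, Slamf1, Kit, Cd34 and Ly6a) were above 0 in every library. In KO 6 of them fell, where 13.0% of all genes tested fell.

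Ighv reads were far fewer in KO than in WT. They numbered 8030, 3630 and 6086 in WT replicates 1 to 3 and 439, 221 and 365 in KO replicates 1 to 3. Scaled to RPM, with all reads over genes of the library as the total, this was 212, 74.6 and 127 in WT and 9.54, 4.33 and 6.22 in KO. The groups did not overlap, and the lowest WT library stood well above the highest KO library. The means were 138 ± 69.1 and 6.70 ± 2.63 RPM (SD, n = 3 each), so KO kept 4.86% of the WT level. No p-value is given for such sums over members. In bulk libraries, fewer B lineage cells and less immunoglobulin RNA per cell cannot be told apart.

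**Figure D1:**
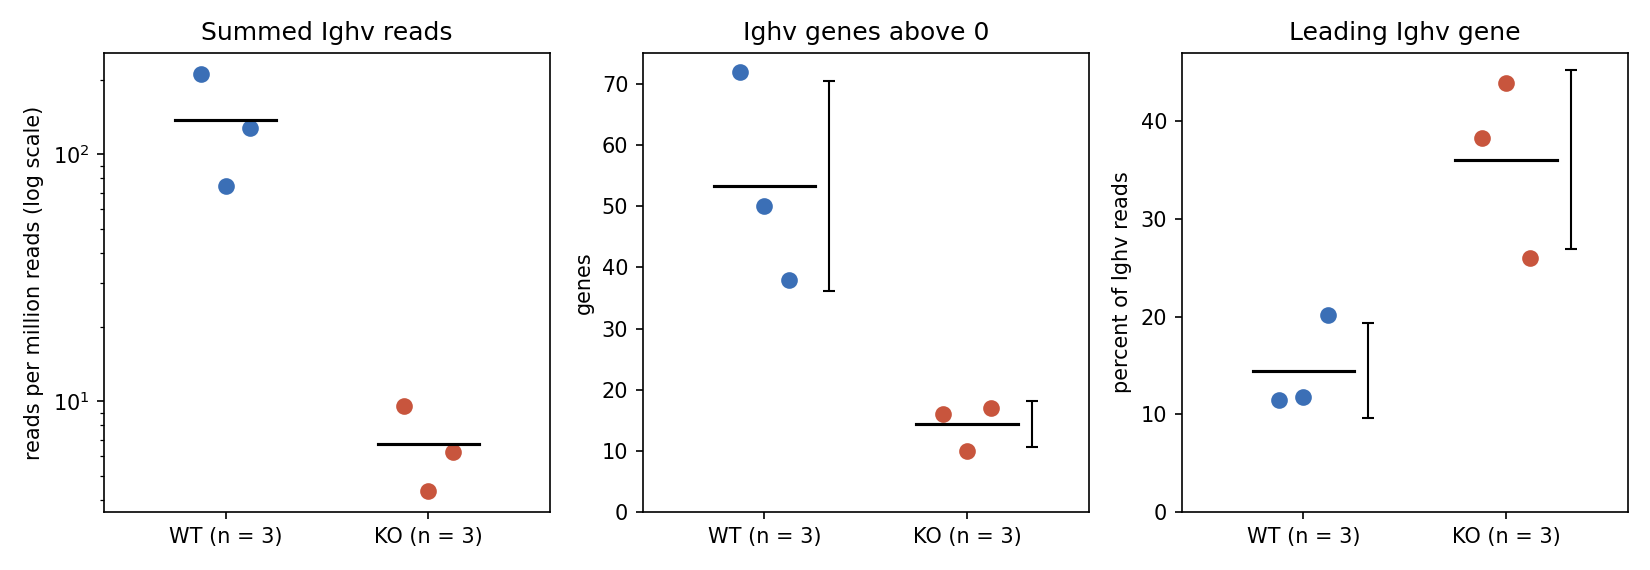
Summed Ighv reads in RPM (log axis), number of Ighv genes above 0, and percent of Ighv reads held by the leading gene, for each of 3 WT and 3 KO libraries (points, with the mean as a line and SD bars beside the points on the linear axes). In all 3 panels the WT and KO libraries do not overlap: 74.6 to 212 against 4.33 to 9.54 RPM, 38 to 72 against 10 to 17 genes, and 11.5% to 20.1% against 26.0% to 43.9%.

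Fewer Ighv genes were read in KO, and fewer of them held most of the reads. The number of genes above 0 was 72, 50 and 38 in the WT libraries and 16, 10 and 17 in the KO libraries. Because a library with more Ighv reads can show more genes, the number expected at 221 reads, the total of the lowest library, was also computed. It was 48.2, 34.8 and 28.1 in WT and 15.1, 10 and 16.7 in KO, so the groups stayed apart at equal Ighv depth. Reads from PCR-amplified libraries without molecular identifiers are not independent molecules, and this value covers counting error only. Genes with only 1 or 2 reads were rare, at 1 to 5 genes per WT library and 1 or 2 per KO library. The median gene above 0 had 63, 27.5 and 62.5 reads in WT and 5, 9 and 8 in KO.

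The gene with the most reads differed between libraries. Ighv9-3 led in WT replicate 1 with 11.5% of Ighv reads, Ighv1-55 in WT replicate 2 with 11.8%, and Ighv1-76 in WT replicate 3 with 20.1%. In KO the leading share was higher: Ighv1-34 held 38.3% in replicate 1, Ighv9-1 held 43.9% in replicate 2 and the pseudogene Ighv1-41 held 26.0% in replicate 3. The leading share averaged 14.5% ± 4.89 in WT and 36.1% ± 9.13 in KO (SD, n = 3 each). The 5 leading genes together held 38.1%, 43.1% and 57.6% in WT and 86.8%, 87.3% and 79.2% in KO. The inverse Simpson index, which gives the number of equally used genes that would be as uneven, was 22.8, 17.7 and 10.9 in WT and 3.79, 3.85 and 6.42 in KO. None of the 3 measures overlapped between groups.

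**Figure D2:**
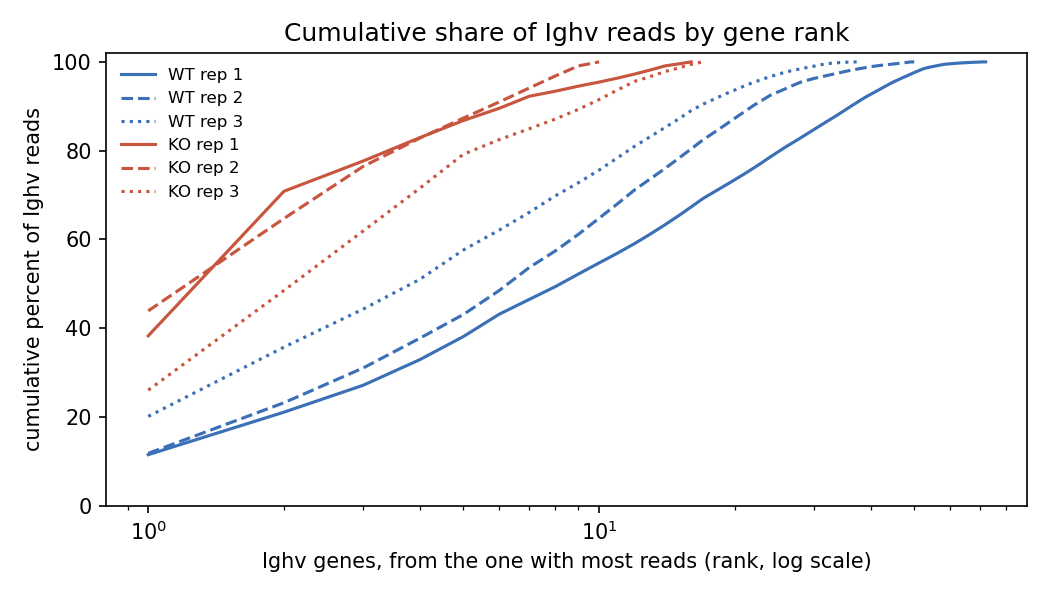
Cumulative percent of Ighv reads (vertical axis) against the rank of the gene, from the one with most reads (horizontal log axis), with 1 line per library. The KO lines lie above the WT lines: 2 or 3 genes are enough for 50% of the reads in KO, against 4 to 9 genes in WT.

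Genes read in WT and genes that led in KO can be close relatives, which stretches from the GENCODE M21 transcripts (GRCm38, chromosome 12, minus strand) show. Ighv1-26, the gene with the highest WT mean, is set beside both leading Ighv1 genes of KO. Each sequence is the 3′ end of the annotated transcript, and capitals mark bases unlike Ighv1-26 in the alignment.
Ighv1-26: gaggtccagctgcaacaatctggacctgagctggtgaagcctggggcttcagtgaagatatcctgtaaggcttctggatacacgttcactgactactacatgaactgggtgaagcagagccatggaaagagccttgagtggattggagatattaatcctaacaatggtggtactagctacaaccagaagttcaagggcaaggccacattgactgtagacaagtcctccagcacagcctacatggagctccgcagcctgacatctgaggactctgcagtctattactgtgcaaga
Ighv1-34: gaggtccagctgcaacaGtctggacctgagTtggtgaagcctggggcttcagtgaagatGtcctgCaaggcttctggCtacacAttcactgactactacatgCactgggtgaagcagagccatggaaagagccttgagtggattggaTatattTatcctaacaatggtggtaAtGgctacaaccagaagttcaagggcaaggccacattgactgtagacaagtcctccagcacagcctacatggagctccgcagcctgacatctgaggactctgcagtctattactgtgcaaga
Ighv1-41: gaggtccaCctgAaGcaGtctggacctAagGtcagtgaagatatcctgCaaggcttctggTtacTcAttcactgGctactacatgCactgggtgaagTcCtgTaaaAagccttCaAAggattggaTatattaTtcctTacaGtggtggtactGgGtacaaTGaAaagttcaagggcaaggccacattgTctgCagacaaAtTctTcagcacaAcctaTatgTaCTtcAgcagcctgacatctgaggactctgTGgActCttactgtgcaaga
Over this stretch, Ighv1-34 differed from Ighv1-26 at 11 positions (96.3% identity). Ighv1-41 had 43 mismatches and lacked 22 bases of Ighv1-26 in 2 gaps (77.9% identity). Ighv9-3 and Ighv9-1, which led in WT replicate 1 and KO replicate 2, are shown in the same way, with capitals for bases unlike Ighv9-3.
Ighv9-3: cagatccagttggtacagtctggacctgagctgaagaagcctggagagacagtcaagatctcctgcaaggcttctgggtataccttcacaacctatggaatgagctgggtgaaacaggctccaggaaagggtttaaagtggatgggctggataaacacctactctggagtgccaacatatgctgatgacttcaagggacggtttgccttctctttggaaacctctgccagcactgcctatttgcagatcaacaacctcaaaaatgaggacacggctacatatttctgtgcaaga
Ighv9-1: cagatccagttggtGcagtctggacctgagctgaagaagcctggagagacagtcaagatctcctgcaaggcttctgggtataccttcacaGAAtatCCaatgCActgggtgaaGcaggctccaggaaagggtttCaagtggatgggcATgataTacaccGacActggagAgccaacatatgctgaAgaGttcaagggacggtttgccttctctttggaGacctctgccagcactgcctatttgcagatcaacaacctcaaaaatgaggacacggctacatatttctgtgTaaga
This pair differed at 20 positions (93.2% identity). Over the last 290 bases, 72 of 183 members compared had another member with at least 95% identity, and 14 had one with at least 98%. Between 51.5% and 73.0% of the Ighv reads of a library lay in genes with such a 95% relative. The labels do not say how reads that match several genes were assigned, so the split between close relatives is uncertain.

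Of the 185 members, 97 were at 0 in all 6 libraries. Among the other 88, 62 had reads in WT only, 23 in both groups and 3 in KO only (Ighv1-28, Ighv1-43 and Ighv8-4, each with 2 to 4 reads in 1 library, named after their values were seen), and the mean was higher in WT in 81 and higher in KO in 7. The WT libraries shared only part of their genes: 23 genes were above 0 in all 3, 29 in 2 and 33 in 1. In KO, 3 genes were above 0 in all 3 libraries, 11 in 2 and 12 in 1. Only Ighv1-41 and Ighv8-6 were above 0 in all 6, and Ighv1-53 was the third gene read in every KO library. Ighv8-6, named after its values were seen, had 12, 4 and 4 reads in WT and 4, 7 and 8 in KO (adjusted p = 0.986), so its groups overlapped.

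A total of 32 members had a normalised read count of at least 1 in at least 3 libraries and entered the test over all genes. Of these 32, 18 fell in KO, 0 rose and 14 did not pass (limma on log2(value + 1), Benjamini-Hochberg adjusted p below 0.05). Among all 20136 genes tested, 23.3% were called, 13.0% as lower and 10.3% as higher. In edgeR on recovered reads, 14 of the 18 members tested fell and 0 rose, where 27.4% of all genes tested were called, 14.9% as lower and 12.4% as higher. At an unadjusted p below 0.05 in limma, 18 were lower and 1 was higher. However, 13 of the 18 that fell were at 0 in every KO library and entered the test through their WT values alone, which required a difference. The 19 other tested members had KO reads, and 5 of them fell. The remaining 56 members above 0 reached a normalised read count of 1 in fewer than 3 libraries and were not tested.

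The members with the highest WT means were unevenly spread over the WT libraries. Ighv1-26 (chromosome 12, 114788372 to 114788805) had 539, 40.9 and 899 normalised reads in WT and 0 in each KO library. WT replicate 2 was thus the low library. The groups did not overlap, which entry to the test with no KO reads required, and 40.9% of all genes tested did not overlap. Against a floor of 3 reads in each KO library, Ighv1-26 was at least 169-fold lower, or 99.4-fold without WT replicate 3. It entered the test through its WT values alone, so its adjusted p of 0.00256 is no separate support, and the same holds for the other called genes at 0 in every KO library. Ighv9-3 (114140692 to 114141122) had 1079.6, 4.76 and 125 in WT and 0 in KO. Nearly all of its reads came from WT replicate 1, and over all libraries the log2 fold change was −6.53 (adjusted p = 0.0262). Without that library it was −4.75 and the call was lost (adjusted p = 0.0653). The call was also lost at a log2 fold change of −6.30 without WT replicate 3 and of −6.53 without any 1 KO library or without the intensity trend (adjusted p up to 0.0850). Ighv1-76 (115847881 to 115848331) had 38.6, 0.952 and 1158 in WT and Ighv14-4 (114176438 to 114176867) had 899, 0 and 0, with 0 in KO for both. Neither was tested, since fewer than 3 libraries reached 1.

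Other members with no KO reads were read at more even levels in WT. Ighv11-2 (114048241 to 114048812) had 571, 271 and 164 normalised reads in WT and 0 in KO, at least 115-fold lower, or 74.5-fold without WT replicate 1. Ighv5-16 (113838526 to 113839010) had 195, 394 and 169 against 0, at least 86.7-fold lower. Ighv1-9 (114583569 to 114584002) had 490.1, 129 and 495 against 0, at least 127-fold lower. Each of these entered the test through its WT values alone, so WT libraries above every KO library were required by the filter. Ighv1-72 and Ighv1-59 also had reads in all 3 WT libraries (109 to 315 and 51.5 to 85.6) and none in KO. The adjusted p-values of these 5 genes ran from 0.000428 to 0.000778, with the limit given for Ighv1-26. Ighv1-72 has a relative with 99.3% identity in Ighv1-62-3 and Ighv11-2 one with 98.6% in Ighv11-1.

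The 5 members that fell and still had KO reads were all of family Ighv1. All 5 reached 1 in all 3 WT libraries, and none did so in all 3 KO libraries. Their WT values alone thus met the filter, and their p-values share that limit. Ighv1-55 (115208095 to 115208591) had 271, 407 and 384 in WT and 5.36, 0 and 0 in KO (log2 fold change −7.56 ± 0.77 SE, adjusted p = 0.00109). The spread over WT was small beside the fall, and only KO replicate 1 had reads. Ighv1-82, Ighv1-77, Ighv1-74 and Ighv1-75, named after their values were seen, had WT means of 87.7, 67.1, 83.1 and 157 and KO means of 2.30, 2.29, 2.79 and 7.56. Their adjusted p-values lay between 0.00570 and 0.0366. Ighv1-55, Ighv1-82 and Ighv1-77 kept their call in each of 14 alternatives, Ighv1-74 in 11 and Ighv1-75 in 7, and Ighv1-75 lost it without the filter (adjusted p = 0.0529), for example. A low member, Ighv1-62-1, was also called (2.34, 6.66 and 4.73 in WT and 0 in KO, adjusted p = 0.0407), and lost its call in 6 of 11 alternatives. It overlaps the annotated lincRNA Gm19331, from which its reads cannot be separated where strand is unknown.

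**Figure D3:**
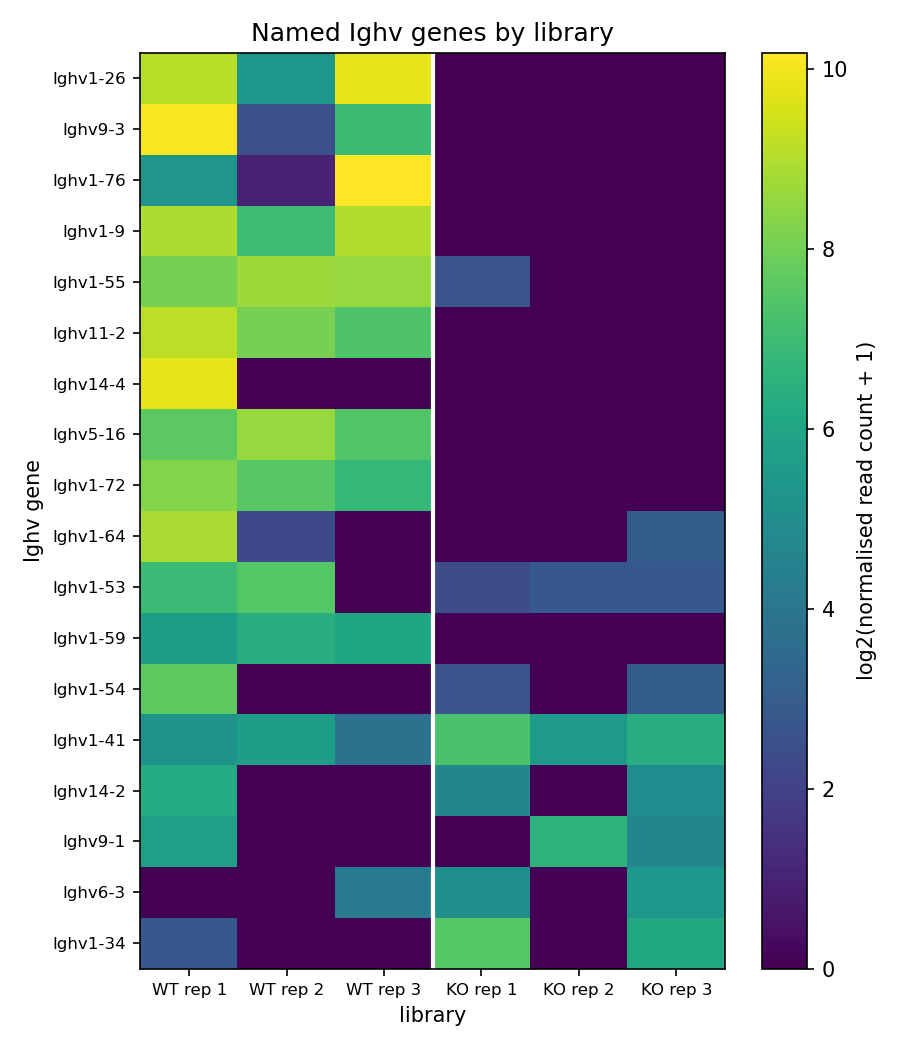
Normalised read count as log2(value + 1), by colour, of the 18 Ighv genes named by rule (rows, by WT mean) in each library (columns, with a white line between WT and KO). Genes such as Ighv1-9 and Ighv11-2 are bright in all 3 WT libraries and at 0 in KO, Ighv9-3 and Ighv14-4 are bright mainly in WT replicate 1, and Ighv1-41 is the row of this plot with reads in all 6 libraries.

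Ighv1-41 was the member with the highest KO mean. This pseudogene (114932371 to 114932782) had 35.1, 50.4 and 13.2 normalised reads in WT and 153, 45.2 and 82.0 in KO. The groups overlapped, since KO replicate 2 was below WT replicate 2. The log2 fold change of 1.49 ± 0.63 (SE) did not pass (adjusted p = 0.133), and over the alternatives the adjusted p ran from 0.0756 to 0.332. While the summed Ighv reads were lower in KO, Ighv1-41 alone made up 32.6%, 20.8% and 26.0% of them there. Pseudogenes as a whole held 0.747%, 2.37% and 0.394% of Ighv reads in WT and 33.9%, 20.8% and 27.7% in KO. Without the pseudogenes, KO libraries had 4.74 Ighv RPM on average, and their leading gene held 48.1% of the rest.

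The other leading KO genes were each absent from at least 1 KO library. Ighv1-34 (114851190 to 114851660) had 5.85, 0 and 0 in WT and 180.1, 0 and 70.8 in KO, and did not pass (log2 fold change 3.63 ± 1.87 SE, adjusted p = 0.210). Without KO replicate 2, the library at 0, it passed as higher (5.91, adjusted p = 0.0109). Ighv9-1 (114093928 to 114094358) had 55.0, 0 and 0 in WT and 0, 95.3 and 24.2 in KO (adjusted p = 0.583). It was high in KO replicate 2 and at 0 in KO replicate 1. Ighv6-3 had 18.0 in WT replicate 3 and 32.2 and 42.3 in KO replicates 1 and 3, with 0 elsewhere (adjusted p = 0.442). Ighv14-2 had 76.0 in WT replicate 1 and 24.6 and 30.2 in KO replicates 1 and 3, with 0 elsewhere (adjusted p = 0.732).

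KO replicates 1 and 3 thus shared Ighv1-34, Ighv6-3 and Ighv14-2, none of which was read in KO replicate 2. They shared 10 genes above 0, or 62.5% of the 16 genes of replicate 1 and 58.8% of the 17 genes of replicate 3. KO replicate 2 shared 4 of its 10 genes with replicate 1 and 6 with replicate 3. The WT pairs shared 26 to 40 genes, which was 44.4% to 84.2% of the genes of either library. The 3 members with the highest WT means among those that were tested and did not pass each had reads concentrated in 1 or 2 WT libraries. Ighv1-64 had 471, 3.81 and 0 in WT and 0, 0 and 6.90 in KO (adjusted p = 0.414). Ighv1-53 had 123, 180 and 0 in WT and 4.29, 5.89 and 6.04 in KO (adjusted p = 0.450), and it passed as lower in DESeq2 with all libraries (log2 fold change −4.22, adjusted p = 0.00250) and in limma without WT replicate 3 (adjusted p = 0.00715). Ighv1-54 had 200.02, 0 and 0 in WT and 5.36, 0 and 6.90 in KO (adjusted p = 0.853). In each of these at least 1 WT library was at 0, and the groups overlapped.

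Family Ighv1 held most Ighv reads in 5 of the 6 libraries. It has 93 of the 185 members (50.3%), and its share was 53.5%, 62.3% and 71.5% in WT and 83.4%, 45.7% and 63.8% in KO. The means of 62.4% ± 8.97 and 64.3% ± 18.8 (SD, n = 3 each) differed by less than the spread between replicates. In RPM the family stood at 83.6 ± 34.0 in WT and 4.63 ± 3.04 in KO. Family Ighv5, with 22 members, held 5.45%, 16.0% and 13.3% in WT and 0%, 6.33% and 0% in KO. Its only gene with KO reads was Ighv5-9-1, named after its values were seen, with 14 reads in KO replicate 2.

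Small families varied widely between libraries. Ighv11, read through Ighv11-2 alone, held 6.08%, 7.85% and 2.84% of WT reads and 0% in each KO library. Ighv9 held 12.1%, 0.138% and 2.17% in WT and 0%, 43.9% and 7.67% in KO, with Ighv9-3 behind most of the WT share and Ighv9-1 behind all of the KO share. Single libraries therefore set the mean of this family. Ighv6 held at most 0.312% in a WT library and 6.83%, 0.905% and 13.4% in KO, chiefly through Ighv6-3. Ighv4 and Ighv7 were read in WT replicates 1 and 2 and Ighv10 in WT replicate 1, and all 3 families were at 0 in KO. The 8 members of families Ighv12, Ighv13, Ighv15 and Ighv16 were at 0 in all 6 libraries, as were 39 of the 93 members of Ighv1. At the KO totals of 221 to 439 Ighv reads, a count of 0 allows up to 3 reads, or 0.683% to 1.36% of Ighv reads.

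**Figure D4:**
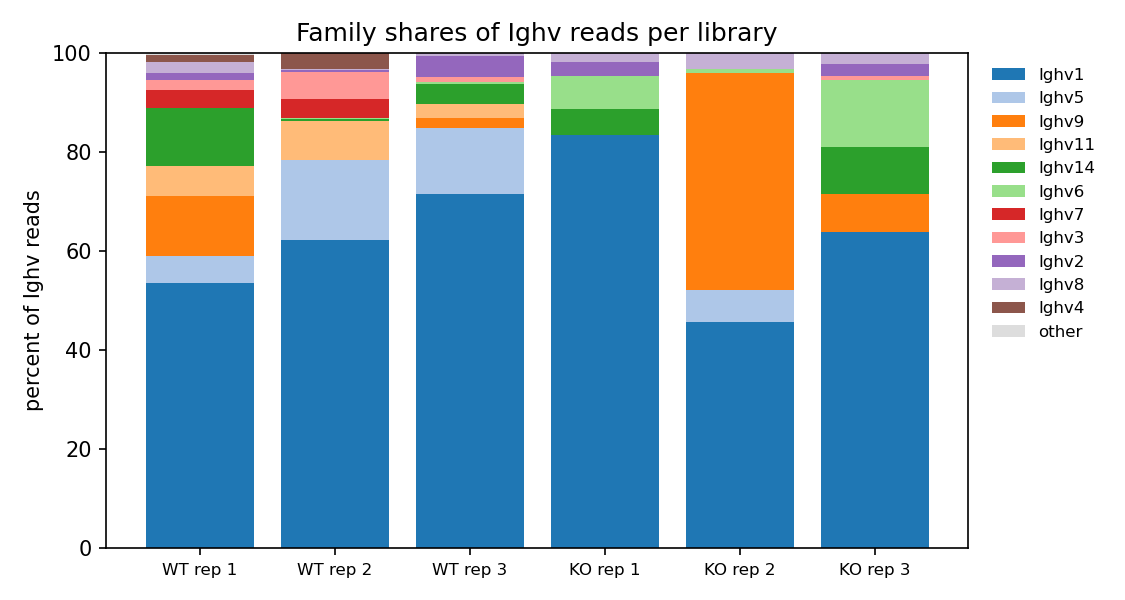
Percent of Ighv reads in each family (coloured segments) for each of 3 WT and 3 KO libraries (bars), with "other" for the remaining families. Ighv1 is the largest segment in all libraries, at 45.7% to 83.4%, Ighv11 is present in the WT bars only, and Ighv9 takes 43.9% of KO replicate 2.

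Reads came from the whole length of the variable region. The members were ordered from the joining segment Ighj1 outwards, from 143 to 2580 kb, and split into 4 consecutive sets of 46 or 47 genes. In WT the nearest set held 17.8%, 29.4% and 24.3% of Ighv reads and the farthest 30.4%, 36.0% and 44.2%. In KO the nearest set held 7.97%, 50.2% and 19.7%, and the farthest 11.2%, 22.2% and 12.9%. The farthest set thus had a lower share in every KO library than in every WT library. Without the leading gene of each library, an alternative chosen after seeing the data, its share was 34.3%, 27.5% and 30.2% in WT and 18.1%, 39.5% and 17.4% in KO, and the groups overlapped. The third set, 1228 to 1736 kb from Ighj1, which contains Ighv1-34 and Ighv1-41, held 17.8% to 21.0% in WT and 74.0%, 26.7% and 53.2% in KO. Without the 1 leading gene of each library it held 20.1% to 24.1% in WT and 57.9%, 47.6% and 36.7% in KO. That step left Ighv1-41 in KO replicates 1 and 2 and Ighv1-34 in KO replicate 3. This set had 325, 59 and 194 reads in KO. Ighv1-34 had 168, 0 and 82 of them and Ighv1-41 had 143, 46 and 95, so these 2 genes made up most of its KO reads. In the farthest set, 31 of 46 genes were read in some WT library and 12 in some KO library.

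**Figure D5:**
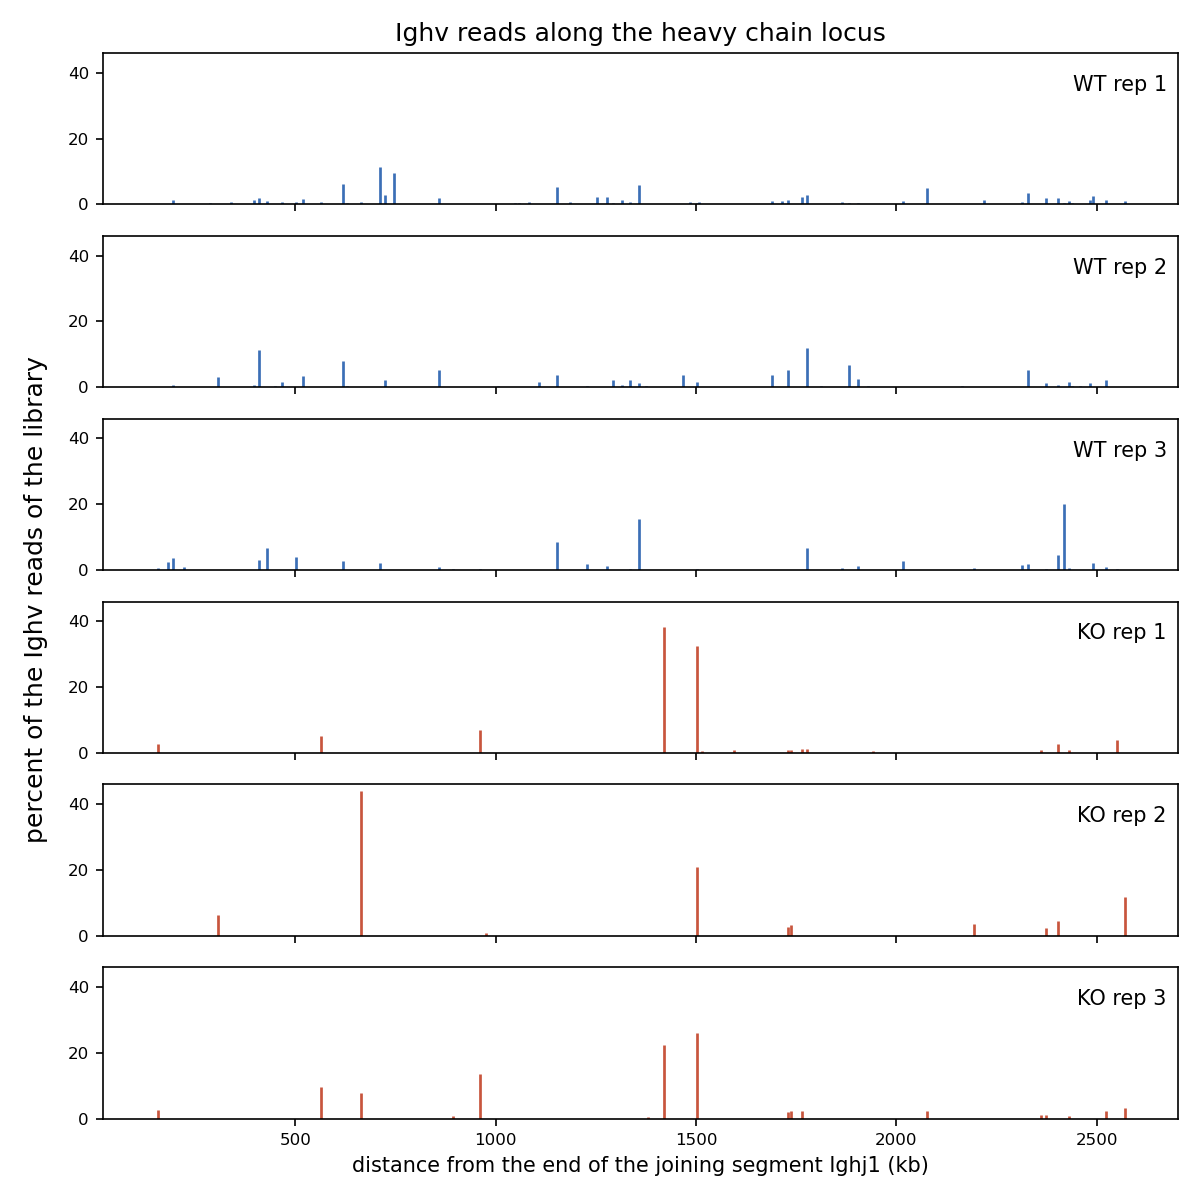
Percent of the Ighv reads of each library (vertical axis, 1 panel per library) against the distance of each gene from the end of the joining segment Ighj1 in kb (horizontal axis). WT reads are spread over many genes along the locus, while in KO replicates 1 and 3 the tallest lines are Ighv1-34 and Ighv1-41 and in KO replicate 2 Ighv9-1.

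The heavy chain constant genes, to which variable segments are spliced in antibody messages, were lower in KO as well. Of 9 listed, 8 were in the files, 6 were tested, 5 fell and 0 rose, with a median log2 fold change of −5.25 against −0.02 over all genes tested. Among all genes tested, 13.0% fell. Ighm, the constant gene of IgM, had 21854, 22291 and 15708 normalised reads in WT and 2050.2, 4693 and 3400 in KO (log2 fold change −2.62 ± 0.28 SE, adjusted p = 0.00138). The IgA gene Igha and the IgG genes Ighg2c and Ighg1 fell, with log2 fold changes of −4.71, −5.80 and −6.75. Ighd, of IgD, fell as well (−4.04, adjusted p = 0.0395), and missed the threshold in edgeR (adjusted p = 0.0510). Ighg2b, another IgG gene, had 15734, 2966 and 13503 in WT and 1219, 0 and 729.96 in KO. It missed the threshold (adjusted p = 0.0965) and passed as lower in edgeR (adjusted p = 0.0486). Like Ighv1-34, Ighg2b was read in KO replicates 1 and 3 and at 0 in KO replicate 2. Ighe, of IgE, had 74.9, 3.81 and 0 in WT and 0 in KO and was not tested, and Ighg3 was at 0 in all libraries.

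Per 100 heavy chain constant reads there were 16.7, 10.8 and 15.3 Ighv reads in WT and 13.9, 4.20 and 7.08 in KO, so these ratios overlapped between groups. KO kept 9.30% of the WT heavy chain constant level in RPM, beside 4.86% for Ighv, or 3.47% for Ighv without its pseudogenes. For the kappa variable genes (Igkv, 160 rows by the same symbol rule) KO kept 2.47%. Ighv reads per 100 Igkv reads were 52.8, 54.1 and 81.1 in WT and 116, 140 and 105 in KO, and these groups did not overlap. Without the Ighv pseudogenes, a step added after seeing the data, the ratios overlapped. WT replicate 3 then had 127 Ighv RPM beside 157 for Igkv, a higher ratio than 6.30 beside 8.19 in KO replicate 1. Of the 4 joining segments, Ighj1 and Ighj2 fell (WT means 26.2 and 14.4, KO means 3.47 and 0.615), and Ighj3 and Ighj4 did not pass. Ighj2 reached 1 in no KO library and entered the test through its WT values alone. The median log2 fold change of the 4 was −2.58. Of 4 tested light chain constant genes, 3 fell and 0 rose (median −4.93). For both lists the share that fell over all genes tested was 13.0%.

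Of 13 tested V(D)J recombination genes, 3 fell and 1 rose, with a median log2 fold change of −0.28. That share is near the 23.3% called over all genes tested. The gene that rose was the DNA ligase gene Lig4, named after its values were seen (log2 fold change 1.23, adjusted p = 0.0388). Dntt, which adds bases at the joints and is also expressed in lymphoid-primed progenitors, fell by 3.18 on the log2 scale. Hmgb1 and Hmgb2, cofactors of the recombinase, and the end-binding protein gene Xrcc6 had log2 fold changes of 0.20, 0.22 and −0.28 and did not pass. Named after their values were seen, the recombinase gene Rag1 had 5.85 normalised reads in WT replicate 1 and 0 elsewhere, and Rag2 fell from a mean of 353 to 30.6. Of 12 tested early B lineage genes, 6 fell and 0 rose (median −0.96), where 13.0% of all genes tested fell. Among the 6, Lef1, named after its values were seen, was at 0 in every KO library and entered the test through its WT values alone. Cd93 fell by 0.93 on the log2 scale and Foxo1 fell from a mean of 589.6 to 295, whereas the transcription factor genes Ikzf1 and Tcf3 had changes of 0.00 and −0.08 and did not pass. Ebf1 and Pax5, the transcription factors that define the B lineage, and the surrogate light chain gene Vpreb2 were at 0 in all 6 libraries. From the same list, and named after their values were seen, Igll1, Vpreb1 and Vpreb3 had reads in both groups. Igll1 had 44.4, 34.3 and 0 in WT and 149, 61.9 and 76.8 in KO, and did not pass (limma, adjusted p = 0.164). Vpreb1 (means 67.2 in WT and 53.6 in KO) and Vpreb3 (6.07 and 7.75) did not pass either (adjusted p = 0.601 for both).

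Of 18 B cell genes, 12 were tested, 3 fell and 0 rose (median −1.40), where 13.0% of all genes tested fell and 10.3% rose. Their summed level was 19393 to 20589 in WT and 16991 to 19109 in KO. The 4 with the highest WT means were Btk, Lyn and Syk, kinases that myeloid cells also use, and Cd79b, a B cell receptor subunit, and none of the 4 passed. These 4 genes made up most of that summed level in every library, so it says little about the other members. The 3 that fell, named after their values were seen, were the B cell inhibitory receptor gene Cd22 (log2 fold change −4.66), the adaptor gene Blnk (−2.59) and the surface protein gene Cd72 (−1.99). Cd22 was at 0 in every KO library and entered the test through its WT values alone, so its call carries the limit given for Ighv1-26. The mature B cell marker gene Ms4a1 had 15.2 in WT replicate 1 and 0 elsewhere, and Fcmr was at 0 throughout. Of 14 tested plasma cell genes, 3 fell and 4 rose (median −0.30), beside 13.0% and 10.3% of all genes tested, so they moved in both directions. Their summed level was 47408 to 48797 in WT and 66840 to 77891 in KO. The members that fell, named after their values were seen, were Jchain, which links IgA and IgM (12902, 1159 and 5138 in WT against 78.2, 197 and 147 in KO), the surface marker gene Sdc1 and Mzb1, a chaperone of antibody assembly. Those that rose were Xbp1, Edem1, Creld2 and, named after its values were seen, Fkbp11, all genes of the secretory pathway that many cell types express. Together they made up most of the summed level of the plasma cell genes in every library. Txndc5 did not pass (adjusted p = 0.785). Among markers of further cell types, 2 of 5 tested T cell genes fell, 5 of 5 erythroid genes fell, and of 6 neutrophil genes 2 rose and 1 fell. The shares over all genes tested were again 13.0% lower and 10.3% higher. The summed level was 144 to 331 in WT and 22.5 to 31.1 in KO for T cell genes, 5049 to 10226 and 1453 to 2012 for erythroid genes, and 81404 to 138531 and 113651 to 253325 for neutrophil genes. The part of a changed cell mix in the Ighv values was not tested.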

How the data were processed

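Messenger RNA was sequenced from 3 WT and 3 KO samples; per the labels' protocols RNA was extracted with Trizol and libraries made with the VAHTS mRNA-seq v2 kit. The submitters' processing notes name HISAT2 and StringTie, and list mm8 and mm10 as builds, with no version or role. What the authors deposited is a normalised signal for each gene and library. All values (100%) were whole multiples of a step of 0.863 to 1.17 within 0.01 of a read, so they are reads divided by a size factor and not scaled by length. Division by the step recovered whole reads.

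KO was compared with WT in limma 3.58.1 (R 4.3.3, intensity trend) on log2(value + 1), two-sided, over every gene that reached 1 in 3 or more libraries, with Benjamini-Hochberg adjustment over all of them. This scale understates changes of low genes. Floors are 3 reads per library and cover counting error only. The procedure was tested on simulated data. Sums, gene numbers and shares are descriptions. Alternatives were limma without the trend, a pseudocount of 0.1, no filter, a minimum of 5, upper quartile scaling, a replicate block, edgeR 4.0.16, DESeq2 1.42.0 and leaving out each library with the tested genes kept. Leaving out pseudogenes, and leading genes along the locus, was added after seeing the data. The members and lists were chosen with earlier results of these data known. Genes named by rule were leading genes, the 8 highest WT and 5 highest KO means, the 5 smallest p and 5 largest falls, and the 3 highest members that did not pass. From the lists, the heavy chain constant genes and up to 4 others by WT mean were named. Libraries of a group differed beyond sampling noise (chi-square per degree of freedom 38.0 to 80.5), so each counted once.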

Additional observations from a re-analysis of the deposited data

How the results depend on the processing

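Of the Ighv genes called lower, 13 were at 0 in every KO library and entered the test through their WT values alone. Fits without a library kept the same tested genes, so the stability of the count is no separate support. The number of Ighv genes called lower was 18, beside 13.0% of all genes tested, and between 13 and 16 when any 1 library was left out (8.03% to 12.7% of all genes). It was 13 without the intensity trend (8.69% of all genes), 14 with a minimum value of 5 (14.4%), 17 without a filter (8.90%), 14 in edgeR (14.9%) and 23 of 60 tested in DESeq2 (14.9%). The number called higher was 0 in the other alternatives and 0 to 1 when a library was left out, the 1 being Ighv1-34 without KO replicate 2. Replicate numbers showed no pairing: deviations of equal-numbered libraries correlated at −0.0234 to −0.0107, and 0 of 3 correlated best with their own number. With the replicate number as a block, 16 Ighv genes were called lower (10.7% of all genes) and 0 higher, 1 joining segment was lower in place of 2, and 0 V(D)J recombination genes were higher in place of 1. Calls lost under that block do not show a weaker effect. Among the Ighv genes named by rule, signs turned for 2 that passed in no analysis: Ighv14-2 stood at −0.47 in edgeR and −0.47 in DESeq2, and Ighv1-54 at 0.31 with a pseudocount of 0.1 and between −1.94 and 1.88 when a library was left out (1.88 without WT replicate 1, 0.28 without KO replicate 2). Ighv9-3 lost its call in 6 of 12 alternatives. Without the leading genes the KO and WT shares of the farthest locus set overlapped. Without pseudogenes the leading gene held 48.1% of KO reads in place of 36.1%. The cause of these changes was not tested. With 221 to 439 Ighv reads in a KO library, single genes at a few reads are not resolved there.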
